A study of Homo sapiens with 12 samples.

Results

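Mitochondrial ribosomal protein genes were followed in HCT116 cells, an established human colorectal cancer line, kept at 21% O2 (0 h) or placed in 1% O2 for 1, 2 or 24 h. The members were all gene names made of MRPL or MRPS and a number, with an optional letter A to C. A name counted if it had an assembled transcript that matched a reference transcript exactly (class code =) or shared part of its splice sites (class code j). This gave 76 of 56537 gene names, 47 named for the large subunit (MRPL) and 29 for the small subunit (MRPS). Each time point had 3 libraries of strand-specific polyA RNA, 12 in all. Hypoxia began 24 h after plating, and whether the 0 h cells were harvested together with the 24 h cells is not stated, so at 24 h the effects of hypoxia and of a longer culture cannot be told apart. The series calls the libraries of a time point biological replicates, and the labels do not name separate cultures, so p-values measure the spread between these libraries. All cells came from 1 line.

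Mitochondrial ribosomes translate the few messages encoded by mitochondrial DNA, which make membrane subunits of the respiratory chain and the ATP synthase. Their ribosomal RNAs come from mitochondrial DNA, but every one of their proteins is encoded in the nucleus, made on cytosolic ribosomes and imported. Many of these proteins have bacterial counterparts, while others are found only in mitochondria. The values here are polyA RNA levels in FPKM, fragments scaled to the length of the transcript and to the mapped fragments of the library. They were summed over the transcripts of each gene name, noncoding ones included. For some members most of the FPKM was in noncoding transcripts, as given below. In bulk RNA, fewer cells of a kind and less RNA per cell cannot be told apart.

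The 24 h libraries fitted their label. All 8 genes of a fixed list of hypoxia targets (CA9, NDRG1, EGLN3, ADM, ANKRD37, VEGFA, BNIP3 and PDK1) rose at 24 h, with a median log2 fold change of 3.39. At 1 h the median of these 8 was 0.08 and 0 passed the test described below. At 2 h it was 0.64 and 2 passed. This list thus did not set the 1 h libraries apart from 0 h. The 5 epithelial markers were present in every library, but did not move together. Mean levels at 0 h and 24 h were 280 and 229 FPKM for EPCAM, 988 and 880 for KRT8, 603 and 517 for KRT18, 490 and 971 for KRT19, and 7.42 and 26.3 for CDH1. Meanwhile 3 of 5 markers of other cells (PTPRC, COL1A2 and PECAM1) stayed at or below 0.0301 FPKM. The other two were present, CD68 with a mean of 2.01 FPKM at 0 h and 10.2 at 24 h, and COL1A1 with 1.92 and 6.87. Their part in the results was not tested. Between 56.95 and 87.65% of all FPKM in a library came from transcripts shorter than 300 bases, and the library numbered 3 had the highest share at each time point.

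All 76 members were expressed, and all passed the filter on low values. At 0 h their mean levels ran from 17.3 to 234 FPKM with a median of 69.0. The highest were MRPS23 (234 ± 25.9, SD, n = 3), MRPL12 (223 ± 13.4) and MRPL51 (222 ± 16.4), which differed from each other by less than their SD. MRPL20 came next, at 163 ± 8.86 FPKM. Over all 12 libraries the lowest means belonged to MRPL50 (15.5 FPKM), MRPS14 (19.6) and MRPS17 (21.5). Members at the top of the order code for proteins of different kinds: MRPS23 and MRPL51 are specific to mitochondria, and MRPL12 belongs to the stalk that recruits translation factors. The median coefficient of variation over the 3 libraries was 7.5% at 0 h and 16.2% at 24 h.

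On the FPKM scale the summed level of both subunits held through 2 h and was lower at 24 h. The large subunit genes summed to 4125, 3821 and 3580 FPKM in the 0 h libraries, and to 2368, 2319 and 1868 at 24 h. The small subunit genes summed to 2159, 2011 and 1929 FPKM at 0 h, and to 1330, 1257 and 1034 at 24 h. Every 24 h library lay below every library of the other time points in both sums. Mean sums at 24 h were 56.9% of the 0 h mean for the large subunit and 59.4% for the small subunit. At 1 and 2 h they were 98.6 and 95.9% for the large subunit, and 99.1 and 97.4% for the small subunit.

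**Figure D1:**
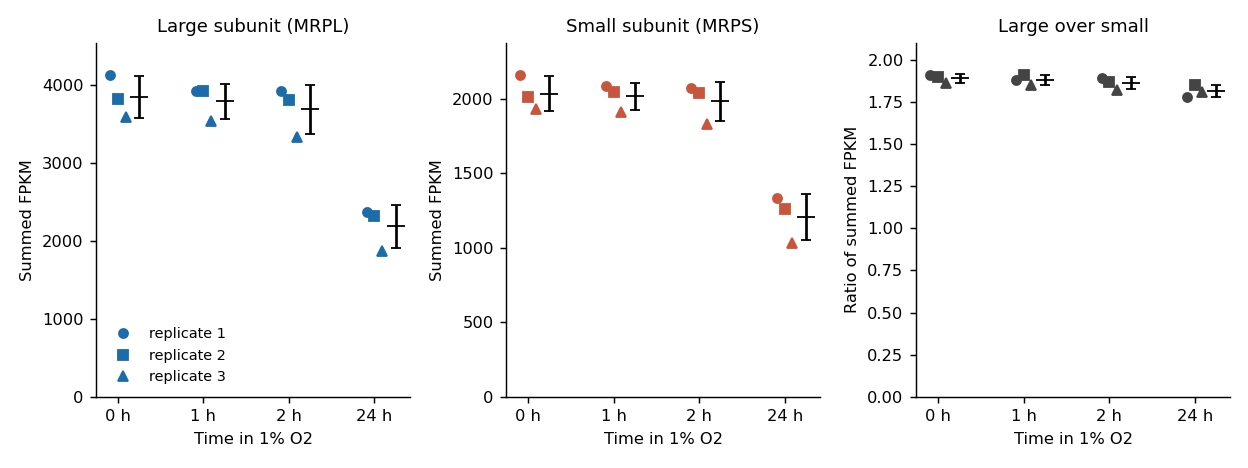
Summed FPKM of the 47 MRPL names (left) and the 29 MRPS names (middle), and their ratio (right), in each of the 12 libraries against time in 1% O2 (circle, square and triangle are replicates 1, 2 and 3, and the black bar is the mean ± SD of 3 libraries). On this scale both sums are lower at 24 h, at 56.9 and 59.4% of the 0 h mean, while with TPM over all transcripts, a scale on which each library has the same sum, 64 members, beside 61.4% of gene names, were already lower at 2 h, and the ratio moves from 1.89 to 1.81.

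The subunits moved nearly together. The ratio of large to small summed FPKM was 1.89 ± 0.0287 before hypoxia (SD, n = 3), 1.88 ± 0.0329 and 1.86 ± 0.0367 after 1 and 2 h, and 1.81 ± 0.0325 after 24 h. Its log2 change at 24 h was -0.06, beside SDs of the log2 ratio of 0.02 at 0 h and 0.03 at 24 h. The 0 h libraries gave 1.91, 1.9 and 1.86 and the 24 h libraries 1.78, 1.85 and 1.81, so the groups did not overlap, by a margin of less than either SD. The library numbered 3 had the lowest sums at each time point, down to 48.6 and 50.8% of the 0 h mean at 24 h. It also had the highest share of FPKM in short transcripts at each time point, and the part of this in the sums was not tested.

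At 24 h against 0 h, 62 of the 76 members were lower and 0 were higher by limma on log2(FPKM + 0.5) with Benjamini-Hochberg adjusted p under 0.05, here called the test. Of all 16680 gene names tested, 30.3% were lower and 25% higher. The lower members were 37 of 47 large subunit genes (78.7%) and 25 of 29 small subunit genes (86.2%). The median log2 fold change was -0.88 for the large and -0.81 for the small subunit, against -0.05 over all gene names. Values ran from -1.79 to 0.66, and 73 of 76 lay below 0. The change passed 2-fold with adjusted p under 0.01 for 24 members, 17 large and 7 small, where 9.51% of gene names were called lower by that rule. That count was 54 with TPM over all transcripts, where the rule called 27.5% of gene names lower. In 64 members (39 large, 25 small) all 24 h libraries lay below all 0 h libraries, which 32.8% of gene names did. In the spread of all gene names, 12 members lay below the 5th percentile (-1.28), 24 below the 10th (-1.01) and 53 below the 25th (-0.55).

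**Figure D2:**
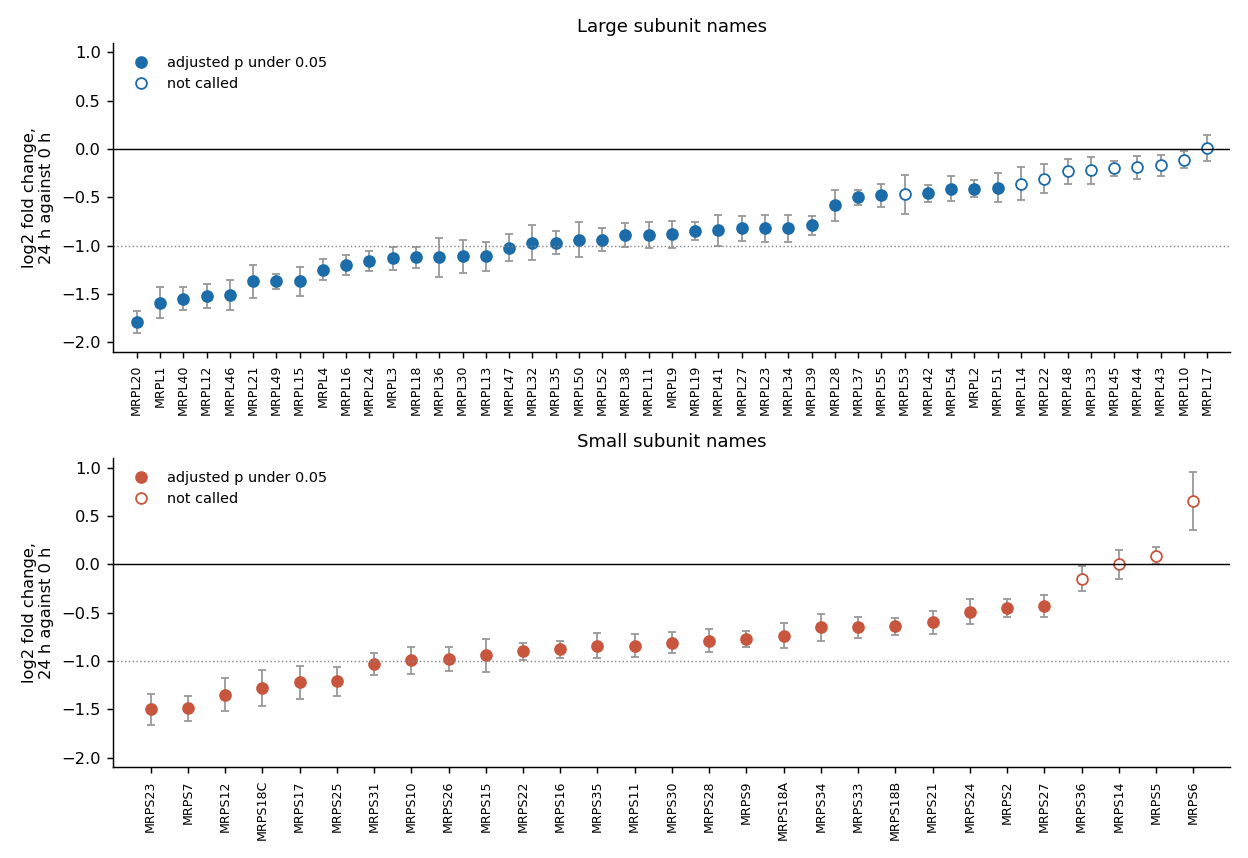
Log2 fold change at 24 h against 0 h for each of the 47 large and 29 small subunit names, sorted, with the standard error from limma (filled points have an adjusted p under 0.05, and the dotted line marks a 2-fold fall). Filled points number 37 and 25, all below 0, and values run from -1.79 for MRPL20 to 0.66 for MRPS6.

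MRPL20 had the largest fall. It codes for a counterpart of bacterial L20, which binds ribosomal RNA early in assembly of the large subunit, and lies on the minus strand at chr1:1337289-1342673 (GRCh37). Its level was 172, 164 and 154 FPKM in the 0 h libraries and 48.7, 47.8 and 43.8 in the 24 h libraries, with 126 to 168 at 1 and 2 h. The 24 h libraries were far below the other 9 and close to each other. The log2 fold change was -1.79 ± 0.11 (SE), with an adjusted p of 2.5e-07 by limma, and the 24 h mean was 28.7% of the 0 h mean.

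Among the other large subunit genes with a bacterial counterpart, MRPL1, whose protein forms a mobile arm beside the exit of spent tRNA, fell by 1.59 on the log2 scale. MRPL21 and MRPL15 both fell by 1.37, MRPL4 by 1.25, MRPL16 by 1.20, MRPL24 by 1.16 and MRPL3 by 1.13. MRPL18 and MRPL36 fell by 1.12, MRPL13 and MRPL30 by 1.11 and MRPL47 by 1.02. MRPL3 and MRPL16 are proteins near the catalytic centre. In all, 25 of 30 measured large subunit genes of this kind were lower, with a median of -0.97. MRPL1 and MRPL16 rest on class j models, which carried 91.0 and 97.2% of their FPKM at 0 h. With class = transcripts only, MRPL1 changed by -0.89 (adjusted p = 0.0016, limma) and MRPL16 by -0.54 (adjusted p = 0.12).

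Of the 17 large subunit genes specific to mitochondria, 12 were lower, with a median of -0.5. MRPL40 and MRPL46, which sit in the central protuberance at the top of the subunit, fell by 1.55 and 1.51. MRPL40 was at 44.5, 43.5 and 38.9 FPKM at 0 h and 14.5, 14.6 and 13.2 at 24 h. MRPL49 fell by 1.37, with an SE of 0.08, from 71.5, 70.4 and 70.0 to 28.2, 28.5 and 24.7 FPKM, so its libraries were tightly grouped at both times. MRPL50, the lowest member, went from 17.3 ± 2.35 to 8.8 ± 1.44 FPKM. MRPL51 was at 239, 220 and 206 FPKM at 0 h and 197, 190 and 127 at 24 h, so the groups did not overlap. Its call (-0.40, adjusted p = 0.035, limma) was lost without the last of these libraries (-0.19, adjusted p = 0.097), without 0 h replicate 1 (0.11) or 0 h replicate 2 (0.075), with no filter (0.074) and with the 6 libraries of 0 and 24 h alone (0.094). At 24 h MRPL51 and MRPL33 were the most abundant members, at 171 ± 39.0 and 131 ± 20.0 FPKM.

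Within named parts of the large subunit the values ranged widely, and the differences between members were not tested. Of the 3 stalk proteins, MRPL12 changed by -1.52 ± 0.12, MRPL11 by -0.89 ± 0.13 and MRPL10, the base to which MRPL12 binds, by -0.11 ± 0.09. MRPL12 was at 237, 220 and 211 FPKM at 0 h and 92.1, 76.5 and 65.8 at 24 h, with no overlap, whereas MRPL10 overlapped, at 66.0, 59.7 and 53.3 against 59.0, 55.6 and 50.7. MRPL10 did not pass the test (adjusted p = 0.34, limma). The central protuberance list had 5 of 6 lower with a median of -1.01, and the exception was MRPL48 (-0.23). The list around the exit of the polypeptide tunnel had 3 of 7 lower with a median of -0.31, near the 30.3% of all gene names that were lower: MRPL23, MRPL24 and MRPL47 passed and MRPL17, MRPL22, MRPL44 and MRPL45 did not. This last count was 6 when values were rescaled to TPM from models of 300 bases or more, and 5 without the 24 h replicate 1.

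Of the small subunit genes 25 of 29 were lower, with values from -1.5 to 0.66. MRPS23, specific to mitochondria, was at 260, 235 and 208 FPKM at 0 h and 88.8, 96.4 and 65 at 24 h. MRPS7, a protein of the head of the subunit where messenger and tRNA leave, was at 114, 107 and 104 FPKM and then 46.7, 38.7 and 30.5. In both genes all 24 h libraries were below the rest. The log2 fold changes were -1.50 ± 0.16 for MRPS23 and -1.49 ± 0.13 for MRPS7, with adjusted p of 1.2e-05 and 2.2e-06 by limma. MRPS12, which sits at the decoding centre, fell by 1.35, MRPS17 by 1.22, MRPS25 by 1.21 and MRPS31 by 1.03. The smallest adjusted p also named MRPS22 (-0.90), MRPS16 (-0.88) and MRPS9 (-0.77). By origin, 12 of 15 with a bacterial counterpart were lower (median -0.84), and so were 9 of 9 specific to mitochondria (median -0.9).

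**Figure D3:**
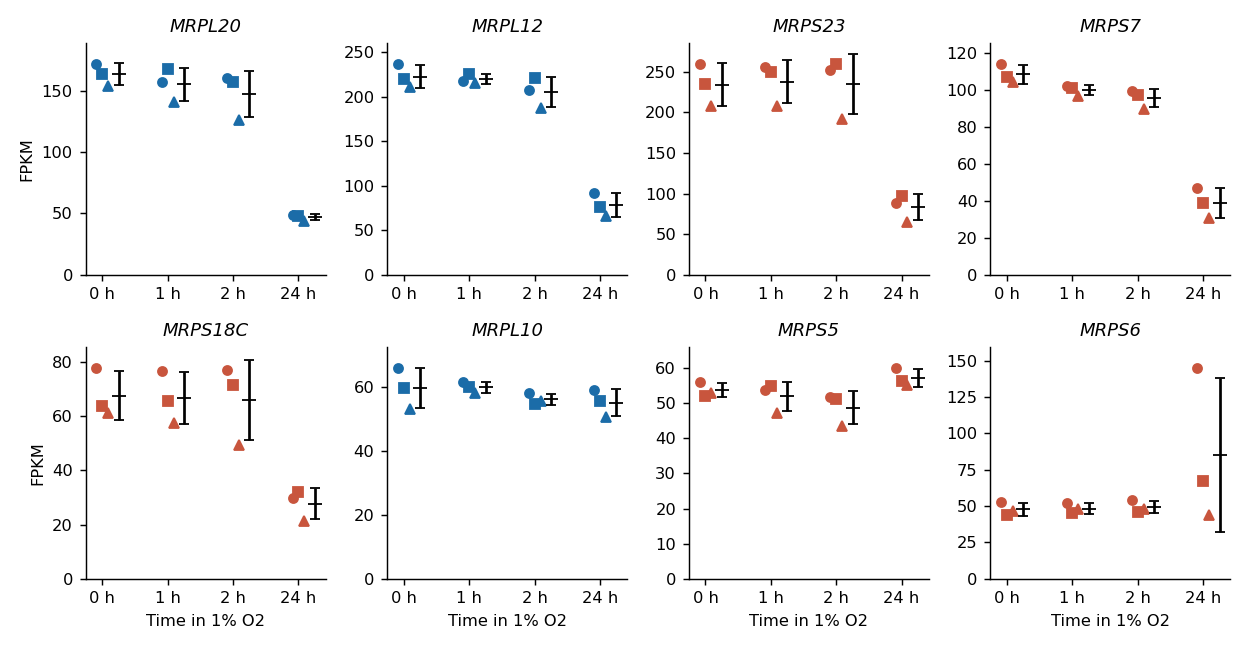
FPKM of 8 members in each of the 12 libraries against time in 1% O2 (circle, square and triangle are replicates 1, 2 and 3, and the black bar is the mean ± SD of 3 libraries). MRPL20, MRPL12, MRPS23, MRPS7 and MRPS18C are lower in all 3 libraries at 24 h, MRPL10 and MRPS5 overlap between 0 h and 24 h, and MRPS6 spreads from 43.7 to 145 at 24 h.

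Humans have 3 genes for proteins related to bacterial S18, each with its own place in the ribosome. MRPS18C, in the small subunit, fell by 1.28, and went from 77.8, 63.6 and 61.3 to 29.9, 32.0 and 21.3 FPKM. MRPS18B, also in the small subunit, fell by 0.64, from 85.9 ± 3.59 to 55.0 ± 5.20 FPKM. MRPS18A is placed in the large subunit in structures despite its name, and fell by 0.74. MRPS30, placed likewise in the large subunit, fell by 0.81. The differences among the 3 paralogues were not tested. MRPS36, since assigned to the oxoglutarate dehydrogenase complex, did not pass the test (-0.15, adjusted p = 0.34, limma).

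The test was not passed by 14 members, of which 10 were large subunit genes: MRPL10, MRPL14, MRPL17, MRPL22, MRPL33, MRPL43, MRPL44, MRPL45, MRPL48 and MRPL53. The other 4 were MRPS5, MRPS6, MRPS14 and MRPS36. With TPM from models of 300 bases or more, 9 of these 14 were called lower, where 32.9% of all gene names were. The median over all gene names was then -0.13. MRPL17 (0.01), MRPS5 (0.09) and MRPS6 (0.66) were the only members above 0, and are named after their values were seen. MRPS5 was at 55.9, 52.0 and 53.0 FPKM at 0 h and 60, 56.4 and 55.2 at 24 h, so the groups overlapped. Scaled to TPM over all transcripts these genes fell below 0, at -0.84, -0.76 and -0.2, where the median of all gene names was -0.78.

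MRPS6, a counterpart of bacterial S6, had libraries that disagreed at 24 h. It was at 52.5, 44.1 and 46.5 FPKM at 0 h, and at 145, 67.1 and 43.7 FPKM at 24 h. The first of these was the highest of all 12 libraries, while the last was the lowest. The adjusted p was 0.085 by limma. Without the 24 h replicate 3 the change was 1.05 with an adjusted p of 0.0036. MRPS6 shares its assembled locus with SLC5A3, a myo-inositol transporter gene, which was at 2.16, 2.45 and 2.32 FPKM at 0 h and 12.1, 4.52 and 6.04 at 24 h (log2 fold change 1.41, adjusted p = 7.0e-04, limma). How reads were divided between these names was not tested.

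Other names shared the locus of 22 members. Of these, 17 were lower (median -0.82), as were 45 of the 54 members alone at their locus (median -0.84). The members lay on 21 chromosomes. Across members, the log2 fold change had a Spearman rho of -0.27 with the 0 h level and -0.02 with the length of the leading transcript. These describe 76 genes in the same libraries, and genes are not independent replicates.

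At 1 h 0 members passed the test, where 0.006% of gene names did, and the median log2 fold change was -0.02 with a range of -0.18 to 0.13. At an unadjusted p under 0.05 there were also 0. At 2 h 0 members passed the test, where 0.312% of gene names did, with a median of -0.06 and a range of -0.34 to 0.21. At 2 h 3 members (3.95%) had an unadjusted p under 0.05, where 15.3% of gene names did: MRPS18A (-0.32), MRPS25 (-0.34) and MRPL42 (0.21), named after their values were seen. MRPL20 changed by -0.07 ± 0.11 at 1 h and -0.15 ± 0.11 at 2 h, and MRPS23 by 0.02 ± 0.16 and 0.00 ± 0.16. The count at 2 h depended on scaling: with TPM over all transcripts 64 members were lower, where 61.4% of gene names were, with a member median of -1.13 beside -0.94 over all gene names. When models under 300 bases were left out of the TPM scale it was 0.

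At 24 h against 2 h, 61 members were lower and 0 higher by limma, where 27.4% of gene names were lower and 23.2% higher. The median was -0.79, against -0.03 over all gene names. This contrast shares the 24 h libraries with the one against 0 h. MRPL20 changed by -1.64 ± 0.11 and MRPL12 by -1.40 ± 0.12. With TPM over all transcripts the count was 2, where 1.58% of gene names were lower, and the medians were -0.55 for the members and 0.12 over all gene names.

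Other genes of mitochondrial translation were counted from fixed lists, beside the 30.3% of all gene names that were lower and 25% that were higher. Of 7 mitoribosomal proteins under other names, 6 were lower (median -0.7), among them MRP63 (-1.67), which went from 26.4, 23.2 and 21.2 to 7.15, 8.03 and 6.0 FPKM, and ICT1 (-1.25), a peptide release factor built into the large subunit. Of 16 translation factors, 14 were lower (median -0.61), led by the elongation factors GFM1 (-1.75) and TSFM (-1.38), the RNA-binding SLIRP (-1.47) and TACO1 (-1.32). Without 24 h replicate 1, 1 of that list also rose, the initiation factor MTIF3 (0.21 with all libraries, named after its values were seen). Of 24 assembly and ribosomal RNA factors, 20 were lower (median -0.79), such as the helicase DDX28 (-1.63), the rRNA methyltransferases MRM1 (-1.63) and FTSJ2 (-1.58), and FASTKD2 (-1.60). The 2 that rose were TFB1M (0.35), a dimethylase of the small rRNA, and the GTPase NOA1 (0.42). With TPM over all transcripts 0 of that list rose, where 390 of 14531 gene names did.

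Of 5 genes of mitochondrial transcription, 4 were lower (median -1.24), including the packaging factor TFAM (-1.15) and the elongation factor TEFM (-1.64). The polymerase POLRMT stood at 33.9 ± 1.98 FPKM at 0 h and 36.7 ± 2.89 at 24 h and did not pass the test. Among 9 tested regulators of nuclear genes for mitochondria, 5 were lower (median -0.33), where 30.3% of all gene names were. They included PPRC1 (-1.09), GABPB2 (-1.02) and GABPB1 (-0.75). GABPB1 codes for a partner of the DNA-binding GABPA, which was at 7.8 ± 0.219 and 8.22 ± 2.06 FPKM. NRF1 passed narrowly (-0.33, adjusted p = 0.042, limma). The count for this list was 3 of 9 with median-of-ratios scaling and 3 without 0 h replicate 1 or 24 h replicate 2, near the share over all gene names.

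Cytosolic ribosomal protein genes had another balance of calls. Of 77 cytosolic ribosomal protein genes, 47 rose and 1 fell (median 0.37, or -0.5 with TPM over all transcripts), where 25% of all gene names rose and 30.3% fell. For the 76 mitochondrial ones the counts were 0 and 62. With that TPM scaling 0 of the 77 rose and 2 fell, where 390 of 14531 gene names rose and 44.6% fell. The median was then -0.78 over all gene names and -1.66 for the members. With TPM from models of 300 bases or more 47 of the 77 rose and their median was 0.28. Leaving out 1 library gave 35 to 66 that rose, the highest without 24 h replicate 3, and 0 to 2 that fell. Of 74 nuclear genes for respiratory chain and ATP synthase subunits, 39 fell and 5 rose (0 with TPM over all transcripts). Their median was -0.32, or -1.18 with TPM over all transcripts. The difference between these groups was not tested.

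**Figure D4:**
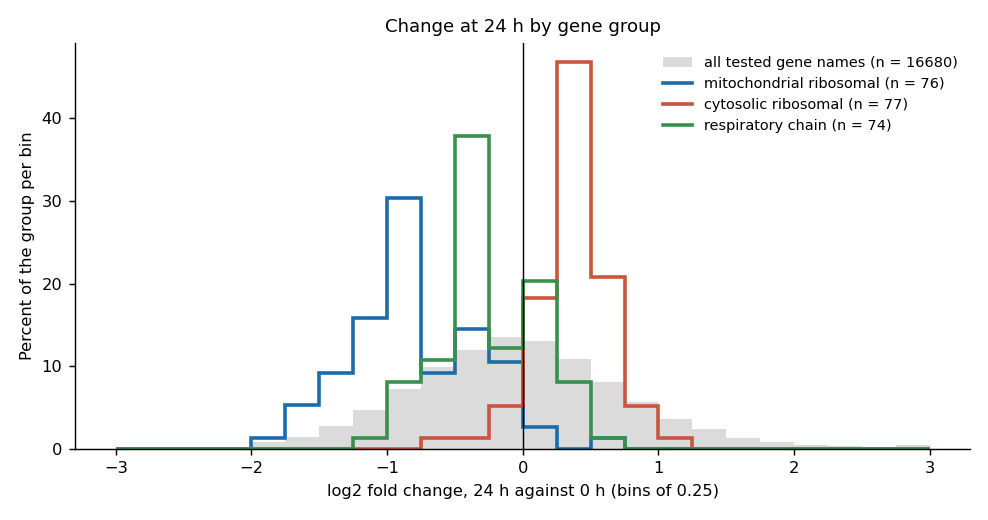
Share of each gene group per bin of 0.25 in log2 fold change at 24 h against 0 h, for all 16680 gene names tested (grey), 76 mitochondrial ribosomal, 77 cytosolic ribosomal and 74 respiratory chain genes. The medians are -0.05, -0.84, 0.37 and -0.32, so the mitochondrial ribosomal genes lie to the left of the other groups. With TPM over all transcripts they are -0.78, -1.66, -0.5 and -1.18.

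Promoter sequence was read for the members, since most of them moved together. RefSeq windows (GRCh38.p14, 250 bases before to 50 after each gene start) matched 67 members by symbol. On either strand, the ETS and GABP core CCGGAAG was in 29 of 67 members (43.3%), 17 of 40 large and 12 of 27 small. It was in 12.2% of the 27305 genes of that table and in 22.6% of the 9443 tested gene names with a window. It was also in 35.5% of 62 cytosolic ribosomal genes and 30% of 50 respiratory chain genes. The members called lower were 25 of 29 with the core and 30 of 38 without it, with medians of -0.9 and -0.83.

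The 60 bases directly before the gene start are shown for each member past 2-fold lower (adjusted p under 0.01) with the core there. MRPL13, MRPL15 and MRPL21 also fell that far but had no window. Members called lower with a smaller fall that hold the core there, such as MRPL27, MRPS10, MRPS26 and MRPS34, are not shown. A link between the core and the size of the fall was not tested. The core, or its reverse complement, is in capitals, each sequence runs 5′ to 3′ on the strand of the gene, and they are drawn from RefSeq on GRCh38.p14.
MRPL20 (chr1:1407294-1407353, minus): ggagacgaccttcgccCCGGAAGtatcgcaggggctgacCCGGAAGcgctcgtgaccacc
MRPL40 (chr22:19432485-19432544, plus): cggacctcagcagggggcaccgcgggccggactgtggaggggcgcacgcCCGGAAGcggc
MRPL3 (chr3:131502972-131503031, minus): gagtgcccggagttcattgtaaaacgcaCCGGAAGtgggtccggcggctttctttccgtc
MRPL18 (chr6:159790407-159790466, plus): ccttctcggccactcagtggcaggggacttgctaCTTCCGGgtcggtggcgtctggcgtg
MRPL47 (chr3:179604639-179604698, minus): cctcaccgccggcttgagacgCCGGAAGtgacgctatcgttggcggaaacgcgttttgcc
MRPS23 (chr17:57850045-57850104, minus): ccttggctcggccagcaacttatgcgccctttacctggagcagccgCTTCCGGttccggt
MRPS12 (chr19:38930894-38930953, plus): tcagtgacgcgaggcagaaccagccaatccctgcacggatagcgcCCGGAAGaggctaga
MRPS31 (chr13:40771191-40771250, minus): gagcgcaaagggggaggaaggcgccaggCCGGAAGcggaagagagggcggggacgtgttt

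MRPL20 holds the core in 2 places, between 44 and 15 bases before the start. The members that did not pass the test hold it there too in 2 cases, shown for comparison in the same form.
MRPL33 (chr2:27771659-27771718, plus): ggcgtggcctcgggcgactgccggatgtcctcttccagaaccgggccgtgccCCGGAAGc
MRPL43 (chr10:100987498-100987557, minus): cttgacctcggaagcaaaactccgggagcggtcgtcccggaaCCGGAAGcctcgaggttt

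The windows of MRPL12 and MRPS7, which fell past 2-fold, did not hold these letters, nor did those of MRPS5. Other motifs were near the share of tested gene names. The NRF1 motif (GCGCA, any base, then GCGC) was in 8 members (11.9%), against 13.5%, and the E-box CACGTG in 9 (13.4%), against 12.7%. The hypoxia response cores were in 24 members for ACGTG (35.8%), which overlaps the E-box, and in 38 for GCGTG (56.7%), against 32.8 and 59.4%. The members called lower were 5 of 8 with the NRF1 motif and 50 of 59 without it, with medians of -0.71 and -0.88. A match in these windows is a description of sequence only.

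At the level of transcripts, 360 member transcripts were tested, of which 139 were lower and 6 higher by limma, where 15.3% of all transcripts were lower and 11.3% higher. Of 202 coding member transcripts, 100 were lower (49.5%) and 3 higher, with a median of -0.76, beside 20.2% lower, 11.3% higher and a median of -0.16 for coding transcripts over all genes. Retained-intron transcripts, which keep an intron and code for no full protein, showed 8 of 49 lower and 1 higher, with a median of -0.09. Over all genes 524 of 7139 retained-intron transcripts were lower and 1043 higher, with a median of 0.12. The 26 member transcripts marked for nonsense-mediated decay had 4 lower (15.4%) and 0 higher, beside 14.9 and 6.49% of such transcripts over all genes, so the lower share was near that background. In the fit of the 6 libraries of 0 and 24 h alone, 3 member transcripts were higher, 2 were without 0 h replicate 1, 0 h replicate 3 or 24 h replicate 2, and 9 without 24 h replicate 3.

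The leading transcript of a gene was the same at 0 h and 24 h in 72 members. Of these, 6 had 1 transcript past the filter and could not change, and the share over all genes is not given here. By its reference type, the leading transcript was noncoding in 8 members at 0 h and 7 at 24 h. At 0 h noncoding transcripts held 59.3% of the FPKM of MRPL11, 68.7% of MRPS14, 54.9% of MRPS16 and 54.4% of MRPS25. The leading transcript changed in MRPL33, MRPL40, MRPL55 and MRPS18C, named after their values were seen. In MRPL40 the leading transcript at 0 h had no defined coding sequence and was at 27.0, 23.7 and 18.3 FPKM, against 6.92, 5.49 and 5.1 at 24 h. Its coding transcript went from 17.1, 19.4 and 20.0 to 7.36, 8.43 and 7.96 FPKM. Both were lower in every 24 h library, and the coding one carried 44.5% of the gene at 0 h and 56.2% at 24 h.

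The share of a gene's FPKM in noncoding transcripts was computed for 48 members with coding and noncoding models. It was larger at 24 h in 26 and smaller in 22, with a median change of 0.15 percentage points, where the median over 5763 genes was 0.6. All 24 h libraries lay above all 0 h libraries in 7 members (14.6%), beside 18.1% of genes, and below in 6 (12.5%), beside 10.1%, so both shares were near the background. The largest shifts of this kind, given as a description, were in MRPL55, MRPL38, MRPL22 and MRPS34.

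**Figure D5:**
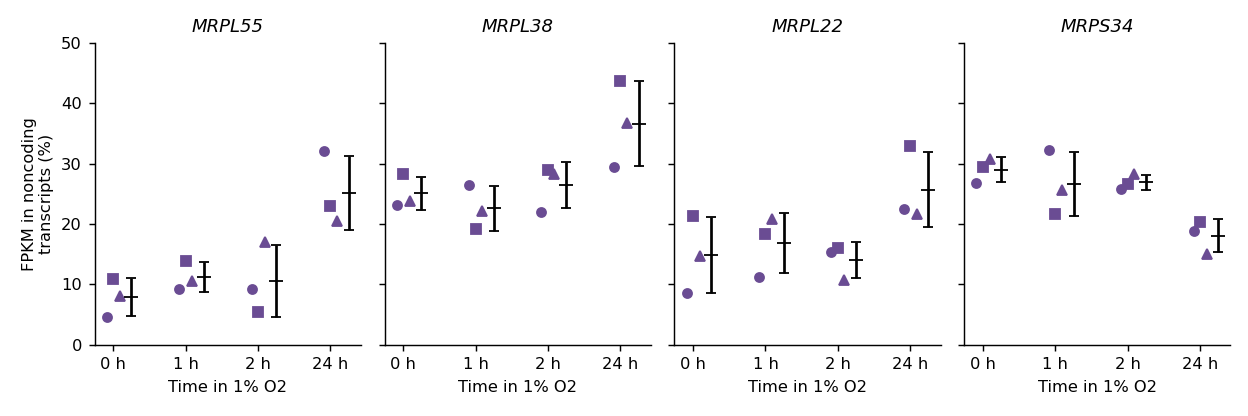
Percent of a gene's FPKM in noncoding transcripts for 4 members in each of the 12 libraries against time in 1% O2 (circle, square and triangle are replicates 1, 2 and 3, and the black bar is the mean ± SD of 3 libraries). The share at 24 h is above that at 0 h in MRPL55, MRPL38 and MRPL22, and below it in MRPS34.

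In MRPL55 the noncoding share was 4.58, 10.9 and 8.13% at 0 h and 32.0, 22.9 and 20.5% at 24 h. It rests on transcripts near the filter of 0.5 FPKM. The highest noncoding one was at 0.884 ± 0.275 FPKM at 0 h and 1.86 ± 0.562 at 24 h. Past the filter on low values the FPKM of MRPL55 was divided among 21 transcripts, and its former leading coding transcript fell by 1.77. In MRPL38 the share was 23.2, 28.2 and 23.8% and then 29.5, 43.6 and 36.7%. Its coding transcript fell by 1.17, from 57.3 ± 4.06 to 25.5 ± 5.35 FPKM, while its noncoding transcript with the highest level at 0 h, a model with no defined coding sequence, also fell, from 6.33 ± 2.23 to 1.2 ± 1.86 FPKM (-2.54 on the log2 scale, adjusted p = 0.011, limma). Its retained-intron transcripts with the highest levels were at 4.03 ± 0.708 and 3.75 ± 0.759 FPKM at 0 h and at 3.1 ± 0.284 and 4.12 ± 0.942 at 24 h, and neither passed the test. In MRPL22 the share was 8.62, 21.3 and 14.7% and then 22.5, 32.9 and 21.7%. Most of it was a transcript marked for nonsense-mediated decay, at 9.82 ± 4.36 FPKM at 0 h and 14.2 ± 6.92 at 24 h. That transcript did not pass the test (adjusted p = 0.41, limma), while the leading coding transcript of MRPL22 fell by 0.50 (adjusted p = 0.02). In MRPL38 and MRPL22 the gap between the groups was less than their SD. MRPS34 went the other way, from 26.7, 29.4 and 30.8% to 18.8, 20.3 and 15.1%. Its retained-intron transcript was at 38.1, 40.7 and 40.4 FPKM at 0 h and 21.2, 18.2 and 10.1 at 24 h, a fall of 1.31 on the log2 scale (adjusted p = 0.0018, limma). The coding transcript of MRPS34 was at 89.3 ± 6.44 and 67.1 ± 16.4 FPKM and did not pass the test.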

How the data were processed

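The authors aligned paired reads to hg19, assembled transcripts in each library with Cufflinks, merged them with Ensembl models and estimated FPKM per transcript and library; these deposited FPKM values were used as given. Their class codes, gene names and transcript lengths came with them. Depth per gene is unknown, as FPKM holds no counts. FPKM of class = and j transcripts was summed per gene name. Gene names above 0.5 FPKM in at least 3 libraries were tested with limma 3.58.1 in R 4.3.3 (lmFit, eBayes with trend) on log2(FPKM + 0.5), means per time point, all 12 libraries, 2-sided, Benjamini-Hochberg over all gene names; transcripts likewise. The pseudocount understates changes of low genes. The study's own rule, over 2-fold at 1%, was counted beside it.

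Transcript types came from GENCODE 44 lifted to GRCh37, by transcript ID. Promoters came from RefSeq on GRCh38.p14, and windows for 9 members were not used here. Tables and figures used Python 3.11.15, numpy 2.4.6, pandas 2.3.3 and matplotlib 3.10.9. The members, lists and tests were chosen with earlier results of these data known. Members are named for small adjusted p, size of change, level or role; all list genes were counted. Alternatives covered pseudocount, filter, class codes, scaling, TPM, a replicate block and each library left out. Same-numbered libraries deviated together at 2 h and at either of 0 h and 1 h, a pairing seen in the values and not named in the labels.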

Additional observations from a re-analysis of the deposited data

Results flagged for a closer look

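The 2 h and 24 h effects differed by a test of the difference itself: 61 members were lower at 24 h than at 2 h by limma with adjusted p under 0.05, where 27.4% of gene names were lower. With TPM over all transcripts 2 members were lower, beside 1.58% of gene names, with medians of -0.55 for the members and 0.12 over all gene names. Both effects are read against the same 0 h libraries, which drop out of this difference. No group had 4 or more libraries, so no single library was tested against the rest of its group.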

How the results depend on the processing

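The number of members lower at 24 h stayed between 61 and 71 over the alternatives that kept all libraries. In those fits 16.3% (no filter) to 44.6% (TPM over all transcripts, 69 members) of gene names were lower. The number was 60 with the 6 libraries of 0 and 24 h alone, where 27.7% of gene names were lower. In every fit 59 members (34 large, 25 small) were lower. 1 member, MRPS6, was called higher with the replicate block (adjusted p = 0.048) and without 24 h replicate 3. TPM over all transcripts gave 64 members lower at 2 h (61.4% of gene names), 2 at 24 h against 2 h (1.58% of gene names, member median -0.55), 54 past 2-fold (27.5% of gene names) and 1 higher member transcript (2.89% of all transcripts); it moved the median of all gene names at 24 h to -0.78. Higher member transcripts numbered 3 with the 6 libraries alone. Leaving out libraries gave 60 to 66 members lower at 24 h, 0 to 1 higher, 22 to 30 past 2-fold, 54 to 63 against 2 h, and 115 to 135 member transcripts lower and 2 to 9 higher. 4 members not called changed sign: MRPL17 (-0.84 with TPM, -0.08 with TPM from models of 300 bases or more, -0.12 to 0.11 without a library), MRPS14 (0.04 with median-of-ratios scaling, -0.15 to 0.1 without a library), MRPS5 (-0.76 and -0.0 with the 2 TPM scalings) and MRPS6 (-0.2 with TPM). The cause was not tested.

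Same-numbered libraries at different times correlated from -0.0833 to 0.428 (mean 0.154, 18 pairs) in their deviations from the group means, and those of 0 h and 24 h from -0.000785 to 0.242, so the numbers were not taken to pair the samples of that contrast. Between 0 h and 2 h every pair was over 0.1 (0.129 to 0.362), as between 1 h and 2 h (0.117 to 0.428), and the replicate block also called 0 members at 2 h. At 24 h the block gave 66 members lower, with MRPL14, MRPL33, MRPL45 and MRPL48 added.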
